A study of Mus musculus with 121 samples.

Results

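In untreated mouse erythroid cells, 26036 of 59085 CTCF peaks (44.1%) overlapped neither a peak of RAD21, a subunit of cohesin, nor a peak of the transcription factor YY1. These peaks, called RAD21/YY1-free peaks here, were selected on 3 measured peak lists, those of CTCF, RAD21 and YY1 in untreated cells, as the CTCF peaks with no overlap of even 1 bp with the other 2. The remaining CTCF peaks fell into 27077 with RAD21 and no YY1 (45.8%), 4372 with both factors (7.40%) and 1600 with YY1 and no RAD21 (2.71%). Because the lists of untreated cells made the selection, the lack of RAD21 and YY1 is not a finding, and only lists from other libraries were tested.

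CTCF binds a long sequence motif through its zinc fingers and is best known from insulators and from the anchors of chromatin loops. In the loop extrusion model the ring-shaped cohesin complex reels in DNA and halts where it meets CTCF in the right orientation, so that CTCF and cohesin often share a site. YY1 binds many promoters and enhancers and has been linked to contacts between them, and LDB1, a non-DNA-binding cofactor, joins GATA1 complexes at erythroid enhancers and promoters.

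The study removed YY1 from G1E-ER4 cells, a mouse line of erythroid progenitors derived from embryonic stem cells that lack functional GATA1 and carry a hormone-activated GATA1, and followed binding, chromatin contacts and transcription over the cell cycle in 121 samples. The auxin-treated group was the YY1-AID subline, in which YY1 carries an auxin-inducible degron, after 4 h of auxin in asynchronous culture. The untreated group was the same subline without auxin. CTCF, RAD21, H3K27ac (acetylated histone H3, found at active enhancers and promoters) and LDB1 had 2 ChIP-seq libraries per group and YY1 had 3. YY1 was also measured with another antibody (2 libraries per group, the auxin group labelled without hours), and in samples titled CTCF-AID, with 4 h of auxin and untreated, 2 libraries each. The genotype label of the CTCF-AID samples reads YY1-AID subline, so title and genotype differ. Stage-resolved YY1 came from the G1E-ER4 MD-mCherry subline after 7 h of nocodazole, which arrests cells in mitosis, with 3 libraries for each stage. Chromatin contacts were mapped by Micro-C, which cuts chromatin with micrococcal nuclease, in mid-G1 cells (4 libraries with auxin and 4 untreated) and asynchronous cells (5 with auxin and 5 untreated). The Micro-C auxin samples are also labelled without hours. Loops and boundaries were deposited as 1 merged list for mid-G1 and 1 for asynchronous cells, so they cannot be compared between auxin and untreated cells.

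Each ChIP-seq condition had 1 deposited peak list with positions and no peak height, so the strength of the RAD21/YY1-free peaks could not be compared with that of other CTCF peaks. Of these peaks 26035 were 400 bp wide and 1 was 745 bp wide. The shared rows of the auxin and untreated lists had identical coordinates for CTCF (54855 peaks), RAD21 (36799 peaks) and LDB1 (15603 peaks), whereas none of the 19818 shared H3K27ac peaks did. The auxin list was longer than the untreated list for CTCF (64548 against 59085 peaks) and RAD21 (50028 against 39745), and it held 3713 YY1 peaks, against 41163 in untreated cells. Read depth was not given in these lists. All intervals below are 95% intervals that cover counting error across peaks only, and the tests are two-sided Fisher's exact tests across peaks, adjusted by Benjamini-Hochberg over 32 comparisons, with no replicate error. Each p below is from these exact tests.

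At the edge of the selection, 66 RAD21/YY1-free peaks ended within 50 bp of a RAD21 peak, the closest with a gap of 1 bp, and 154 lay within 50 bp of a YY1 peak, the closest touching it. Just outside the selection, 89 CTCF peaks shared at most 50 bp with a RAD21 peak, the least being 2 bp, and 435 shared at most 50 bp with a YY1 peak, the least being 1 bp. Most other CTCF peaks were well inside the overlap, with a median of 373 bp shared with RAD21 and 287 bp shared with YY1.

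The median gap of a RAD21/YY1-free peak to the nearest RAD21 peak was 10513 bp (quartiles 3664 and 28299 bp), and to the nearest YY1 peak 12268 bp (quartiles 3440 and 44201 bp). A RAD21 peak lay within 10 kb of 48.6% of the RAD21/YY1-free peaks and within 1 kb of 7.56%. The nearest other CTCF peak was at a median of 6314 bp from a RAD21/YY1-free peak, 6520 bp from a CTCF peak with RAD21 and no YY1, and 4370 bp from a CTCF peak with YY1. By chromosome the RAD21/YY1-free share of the CTCF peaks was lowest on chromosome 19 (39.8%) and highest on chromosome 5 (48.1%), with a median of 44.1%.

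Neighbouring CTCF peaks often belonged to different classes. Along the chromosomes the RAD21/YY1-free peaks formed 14040 runs of consecutive CTCF peaks, of which 7926 held a single peak (30.4% of the RAD21/YY1-free peaks). Runs of 5 or more numbered 706 and held 4531 of them (17.4%). Run lengths depend on the share of the class among CTCF peaks (44.1%), and no comparison with a random order was made. In 2449 bins of 1 Mb with at least 1 CTCF peak, the median bin held 7 RAD21/YY1-free peaks (quartiles 2 and 15) and the fullest held 61. They outnumbered the CTCF peaks with RAD21 and no YY1 in 967 of these bins (39.5%).

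**Figure D1:**
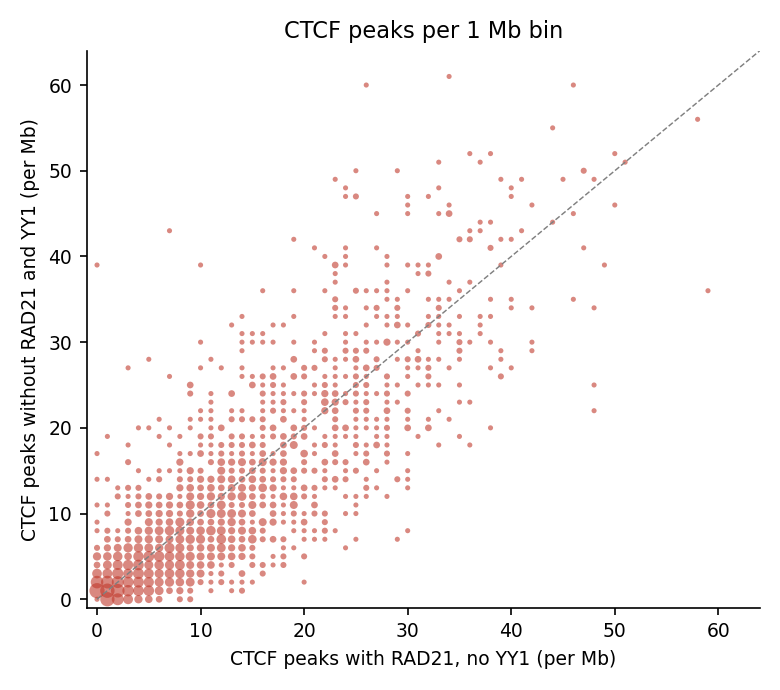
Each point is a pair of counts found in 1 or more 1 Mb bins of the genome, with larger points for more bins. The y axis gives the RAD21/YY1-free CTCF peaks per Mb and the x axis the CTCF peaks with RAD21 and no YY1 per Mb. The dashed line marks equal counts. The bins with most RAD21/YY1-free peaks also held many with RAD21 and no YY1, and the fullest held 61 beside 34. There were exceptions, such as a bin with 39 RAD21/YY1-free peaks and 0 with RAD21 and no YY1. No correlation was computed.

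The first comparison asked whether these peaks stayed in the CTCF list once YY1 was removed. In auxin-treated cells 22490 of the 26036 RAD21/YY1-free peaks (86.4%, 86.0 to 86.8%) were in the CTCF list, against 26716 of 27077 CTCF peaks with RAD21 and no YY1 (98.7%). Over all untreated CTCF peaks the share was 92.8%. The difference was −12.29 percentage points (−12.73 to −11.85), the odds ratio was 0.0857 (0.0768 to 0.0956) and the adjusted p was below 1e-300, the smallest value written. The RAD21/YY1-free peaks had the lower share on 20 of 20 chromosomes. They were also below the 5972 CTCF peaks with YY1, with or without RAD21, of which 5649 (94.6%) were in the auxin list. That difference was −8.21 points (−8.90 to −7.48, adjusted exact p = 2.38e-80). Peaks of this kind also differed in the other direction. Of the 26492 auxin CTCF peaks without an auxin RAD21 or YY1 peak, 18955 (71.55%) were in the untreated CTCF list. Of all 64548 auxin CTCF peaks, 54855 were in it. The part of YY1 removal in these differences between lists was not tested.

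Among CTCF peaks without RAD21, those with YY1 did not differ detectably in the share kept in the auxin CTCF list. Of the 1600 CTCF peaks with YY1 and no RAD21, 1378 (86.1%) were in the auxin CTCF list, against which the RAD21/YY1-free peaks stood 0.26 points higher (−1.41 to 2.08, adjusted exact p = 0.764). The CTCF peaks with both factors kept 97.7%. The comparison with the 1600 peaks was added after the values by class had been seen. Its direction turned to −0.64 points (86.3% against 86.9%, adjusted exact p = 0.719) outside H3K27ac peaks.

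**Figure D2:**
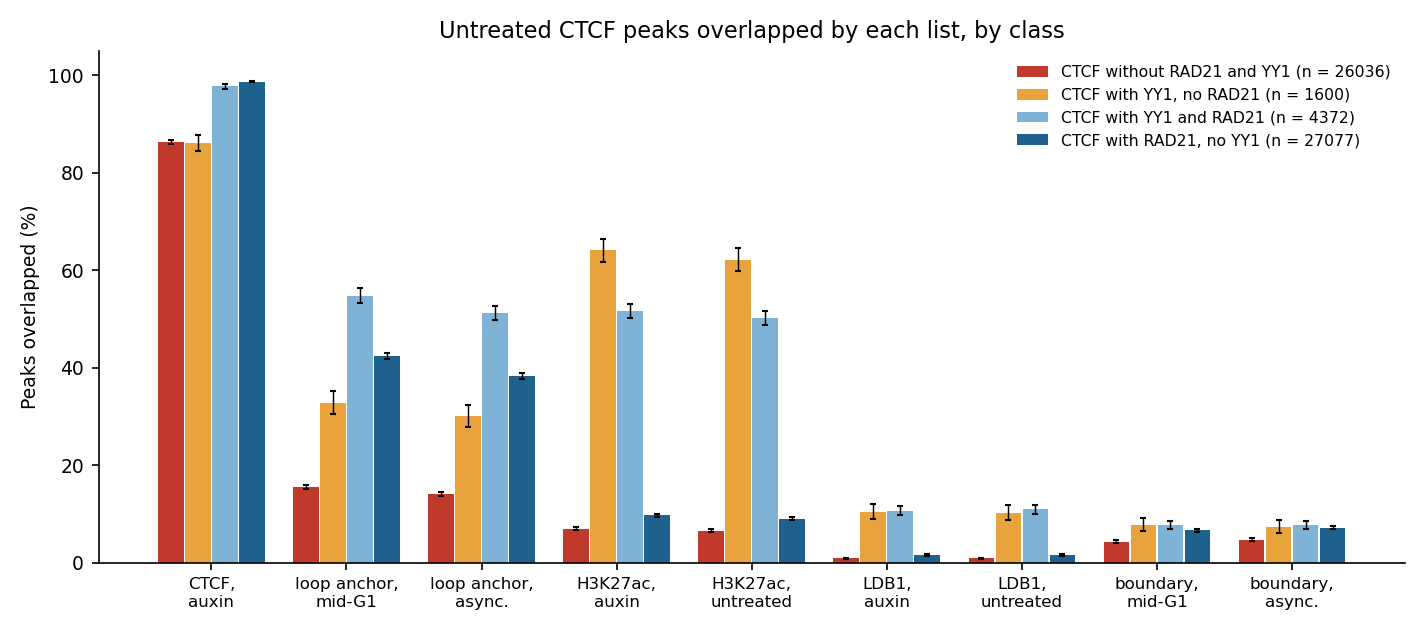
Bars give the percentage of untreated CTCF peaks overlapped by each list named on the x axis, for RAD21/YY1-free peaks (red), peaks with YY1 and no RAD21 (orange), peaks with both (light blue) and peaks with RAD21 and no YY1 (dark blue). Black lines are Wilson 95% intervals. The red bars are the lowest of each set except for the auxin CTCF list, where red (86.4%) and orange (86.1%) stand at nearly the same height below both blue bars.

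Within the RAD21/YY1-free peaks, the share kept in the auxin CTCF list was not detectably related to active chromatin or to contacts. It was 87.5% inside H3K27ac peaks and 86.3% outside, a difference of 1.15 points (−0.55 to 2.70, adjusted exact p = 0.300 over 15 comparisons within these peaks, added after the data had been seen). In anchors of mid-G1 loops it was 85.5%, against 86.6% outside them (−1.10 points, −2.30 to 0.05, adjusted exact p = 0.154). In anchors of asynchronous loops it was 85.6%, against 86.5% outside them (adjusted exact p = 0.213). Inside LDB1 peaks it was 85.5%, against 86.4% outside (adjusted exact p = 0.741). At boundaries of asynchronous cells it was 88.0%, against 86.3% elsewhere (adjusted exact p = 0.191), and at mid-G1 boundaries 85.8%, against 86.4% (adjusted exact p = 0.741). By gap to the nearest RAD21 peak it was lowest between 100 and 500 bp, at 74.9% (71.5 to 78.1%, 662 peaks), and close to 87% beyond 5 kb. The 120 peaks within 100 bp of a RAD21 peak stood at 94.2% (88.5 to 97.2%).

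RAD21 was next followed in auxin-treated cells, whose RAD21 list played no part in the selection. An auxin RAD21 peak overlapped 5444 of the RAD21/YY1-free peaks (20.9%, 20.4 to 21.4%), against 61.5% of all untreated CTCF peaks. Since none of these peaks had RAD21 in the untreated list, they could only gain it, and the classes with RAD21 are given as a description. Of the CTCF peaks with RAD21 and no YY1, 896 of 27077 (3.31%) lacked an auxin RAD21 peak.

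The same count was made from the auxin side. Of the 26492 auxin CTCF peaks without an auxin RAD21 or YY1 peak, 975 (3.68%) overlapped an untreated RAD21 peak. The auxin RAD21 list was the longer one, as given above, and the part of its length in the gain was not tested. In the auxin lists 17244 of the 26036 RAD21/YY1-free peaks (66.2%) were again CTCF peaks without RAD21 and YY1, and 3348 (12.9%) were in neither the CTCF nor the RAD21 list.

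Of the 13229 auxin RAD21 peaks with no untreated counterpart, 5446 (41.2%) lay on a RAD21/YY1-free peak and 451 (3.41%) on another untreated CTCF peak. That contrast follows from the selection, since CTCF peaks with untreated RAD21 could hardly hold such a peak. The other class open to them had 1600 CTCF peaks, against 26036 RAD21/YY1-free ones. A further 1085 of the 13229 (8.20%) lay on a CTCF peak of the auxin list alone, and 6247 (47.2%) on no CTCF peak of either list. Auxin CTCF peaks with no untreated counterpart carried an auxin RAD21 peak at a similar share, 2043 of 9693 (21.1%, 20.3 to 21.9%).

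The only other CTCF class that could gain RAD21 gained it more often. The RAD21/YY1-free peaks, at 20.9%, were below the 1600 CTCF peaks with YY1 and no RAD21, of which 451 (28.2%) overlapped an auxin RAD21 peak. The difference was −7.28 points (−9.59 to −5.07, adjusted exact p = 2.99e-11) and had this sign on 18 of 20 chromosomes. Outside untreated H3K27ac peaks the same difference was −2.96 points (20.7% against 23.6%) and missed the threshold (adjusted exact p = 0.0995). It was −3.68 points with an overlap of at least 50% of the CTCF peak and −3.46 points with all peaks reduced to 200 bp.

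The gain of RAD21 went with keeping the CTCF peak. Of the RAD21/YY1-free peaks still in the auxin CTCF list, 5246 of 22490 (23.3%) had an auxin RAD21 peak, against 198 of 3546 (5.58%) of those no longer in it (odds ratio 5.14, 4.44 to 5.96, adjusted exact p = 1.34e-161). Inside H3K27ac peaks 416 of 1714 (24.3%) gained RAD21, against 20.7% outside, a difference of 3.60 points (1.56 to 5.74, adjusted exact p = 0.00256). Inside LDB1 peaks 71 of 248 (28.6%) did, against 20.8% outside, a difference of 7.79 points (2.50 to 13.73, adjusted exact p = 0.0109). Of the CTCF peaks with YY1 and no RAD21, 28.2% gained RAD21. Among those still in the auxin CTCF list the share was 30.55%, and that difference was not tested.

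No difference was detected at loop anchors or boundaries. In mid-G1 anchors 21.7% of the RAD21/YY1-free peaks gained RAD21, against 20.8% outside them (0.90 points, −0.45 to 2.30, adjusted exact p = 0.300). In asynchronous anchors 21.2% gained it, against 20.9% outside them (0.37 points, −1.03 to 1.82, adjusted exact p = 0.741). At boundaries the shares were 20.7% in mid-G1 cells, against 20.9% elsewhere (adjusted exact p = 0.881), and 20.5% in asynchronous cells, against 20.9% elsewhere (adjusted exact p = 0.800).

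The gain was not confined to places near cohesin of untreated cells. It was 23.7% (22.0 to 25.6%) among the 2117 RAD21/YY1-free peaks more than 100 kb from any untreated RAD21 peak, 21.4% between 10 and 50 kb and 22.6% between 1 and 5 kb. Close by it was smaller, with 16.7% between 500 and 1000 bp, 5.14% between 100 and 500 bp, and 0 of 120 within 100 bp (upper limit of the interval 3.10%). No RAD21 peak overlapped another within either list. These shares by gap are a description, since the gap is measured to a list used in the selection.

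**Figure D3:**
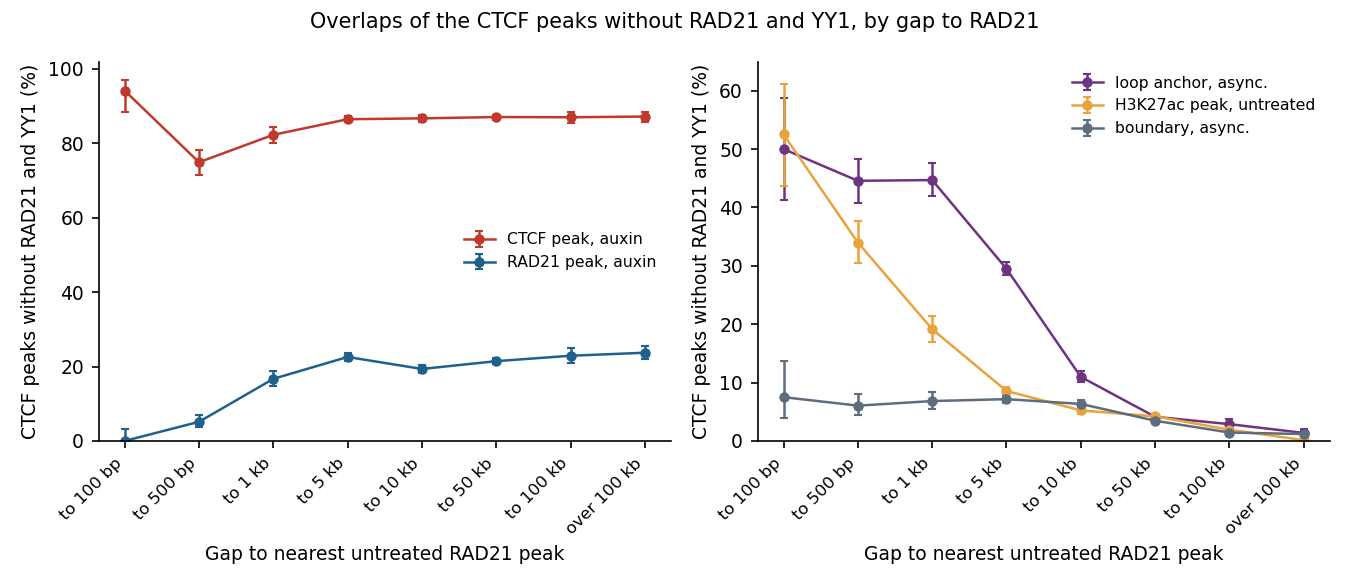
The x axes give the gap from RAD21/YY1-free CTCF peaks to the nearest untreated RAD21 peak, in 8 classes from within 100 bp to over 100 kb. The y axes give the percentage overlapped by auxin CTCF and RAD21 peaks (left) and by asynchronous loop anchors, untreated H3K27ac peaks and asynchronous boundaries (right), with Wilson 95% intervals. The auxin RAD21 share stands between 19.4% and 23.7% beyond 1 kb, while the loop anchor share is 50% within 100 bp and 1.37% beyond 100 kb.

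Where RAD21 appeared on these peaks, it sat near the middle of the CTCF peak but with more scatter than at CTCF peaks with RAD21. The midpoints of the 5446 pairs of a RAD21/YY1-free peak and an auxin RAD21 peak were a median of 29 bp apart (quartiles 14 and 51 bp), and 8.78% were more than 100 bp apart. At CTCF peaks with RAD21 and no YY1, the median in auxin-treated cells was 26 bp (quartiles 18 and 34 bp, 26177 pairs), with 2.14% more than 100 bp apart. These distances come from called peak positions and were not tested.

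**Figure D4:**
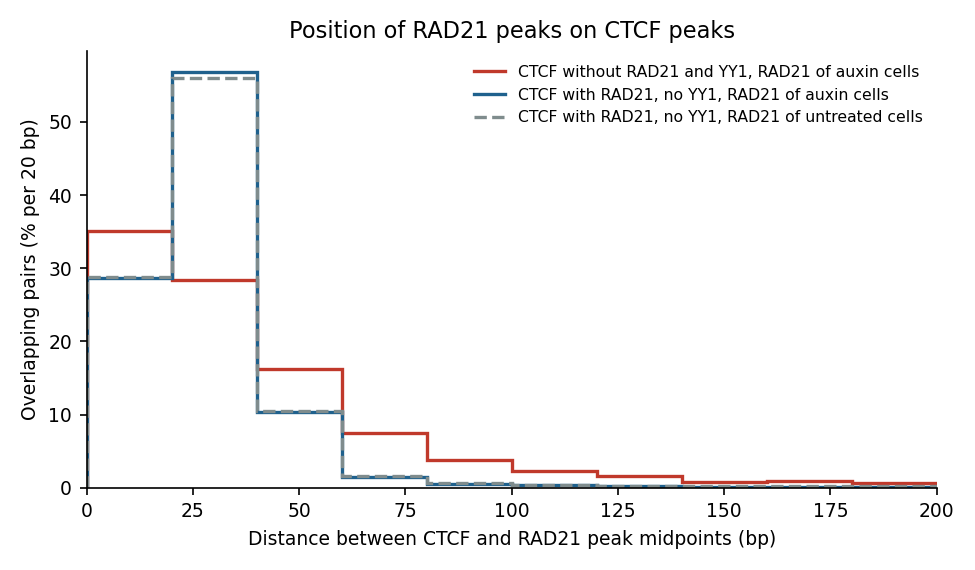
The x axis gives the distance between the midpoints of overlapping 400 bp CTCF and RAD21 peaks, and the y axis the percentage of pairs per 20 bp. The red line is for RAD21/YY1-free CTCF peaks with RAD21 of auxin-treated cells, the blue line for CTCF peaks with RAD21 and no YY1 in auxin-treated cells, and the dashed grey line for the same class in untreated cells. The blue and grey lines peak at 20 to 40 bp (56.9% of pairs for blue), while the red line is highest at 0 to 20 bp (35.1%) and has a longer tail.

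YY1 was then looked for in the lists that the selection did not use. In untreated cells the other YY1 antibody had a peak on 104 RAD21/YY1-free peaks (0.399%), against 173 CTCF peaks with RAD21 and no YY1 (0.639%) and 3.29% of all untreated CTCF peaks. The difference was −0.24 points (−0.36 to −0.12, adjusted exact p = 0.000143), on 15 of 20 chromosomes. It missed the threshold outside H3K27ac peaks, where the shares were 0.107% and 0.142% (adjusted exact p = 0.331), and under both stricter overlaps (adjusted exact p = 0.141 and 0.184). In the CTCF-AID samples the auxin list covered 173 RAD21/YY1-free peaks (0.665%), against 298 with RAD21 and no YY1 (1.10%, adjusted exact p = 1.01e-07) and 4.92% of all. The untreated CTCF-AID list covered 138 (0.530%), against 227 (0.838%, adjusted exact p = 2.07e-05) and 4.63% of all.

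At least 1 of the stage lists held 194 RAD21/YY1-free peaks (0.745%), against 359 CTCF peaks with RAD21 and no YY1 (1.33%, adjusted exact p = 4.28e-11) and 5.32% of all untreated CTCF peaks. By stage of emergence, 1 was in the list of prometaphase (0.227% of all CTCF peaks), 48 in anaphase and telophase (1.91% of all) and 129 in early G1 (2.5% of all). Mid-G1 held 17 (0.658% of all) and late G1 held 2 (0.0423% of all). Outside H3K27ac peaks the differences were −0.17 points for the stage lists and −0.0995 (auxin) and −0.12 points (untreated) for CTCF-AID, all still past the threshold. After auxin the first antibody had a peak on 6 RAD21/YY1-free peaks (0.0230%), against 1.05% of all CTCF peaks. The other antibody had one on 65 in auxin-treated cells (0.855% of all), against 104 in untreated cells, with 40 in both lists. The 40 were 38.5% of the 104. Over all untreated CTCF peaks, 444 of the 1941 in the untreated list (22.9%) were also in the auxin list, and the difference was not tested.

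The other YY1 lists were shorter than the one used in the selection, with 9164 peaks for the other antibody and 16355 for CTCF-AID in untreated cells, against 41163. Even of the CTCF peaks with YY1 they covered 27.9% (other antibody), 39.7% (CTCF-AID) and 43.3% (any stage list), so a lack of overlap with them says little of a single peak. The other YY1 lists without auxin were of 3 kinds: the other antibody, CTCF-AID, and the stages after nocodazole. Of the RAD21/YY1-free peaks 331 (1.27%) had a YY1 peak in at least 1 kind, 85 in at least 2 and 20 in all 3. These counts were not made over all untreated CTCF peaks, of which 3.29%, 4.63% and 5.32% were in each kind alone. The CTCF lists, the RAD21 lists and the YY1 lists of the first antibody in YY1-AID cells were then set aside, since the selection used 1 of each. In none of the remaining peak, anchor and boundary lists were 18422 RAD21/YY1-free peaks (70.8%), against 51.5% of all untreated CTCF peaks. The share was 42.2% for CTCF peaks with RAD21 and no YY1 and 10.3% for those with YY1. The remaining lists include YY1 lists, and these peaks were selected for lacking YY1. The shares sum up the overlaps given one by one here and were not tested.

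Few of these peaks lay in active chromatin. In auxin-treated cells 1815 RAD21/YY1-free peaks (6.97%) overlapped an H3K27ac peak, against 9.73% of CTCF peaks with RAD21 and no YY1 (−2.76 points, −3.23 to −2.29, adjusted exact p = 2.47e-30) and 13.1% of all CTCF peaks. In untreated cells 1714 (6.58%) did, against 9.02% (−2.44 points, −2.89 to −1.98, adjusted exact p = 1.82e-25) and 12.4% of all. Both differences had the same sign on 20 of 20 chromosomes. In untreated cells the difference was −7.07 points for RAD21/YY1-free peaks at least 1 kb from every RAD21 and YY1 peak (1.95% against 9.02%). That filter used lists of the selection and was applied to the RAD21/YY1-free peaks alone, so the wider difference is a description. With all peaks, H3K27ac peaks included, reduced to 200 bp it was −0.39 points (1.19% against 1.58%, odds ratio 0.752).

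The gap to CTCF peaks with YY1 was far wider. Of CTCF peaks with YY1, 55.0% overlapped H3K27ac in auxin-treated cells, against which the RAD21/YY1-free peaks stood at −48.02 points, and 53.4% did in untreated cells (−46.83 points, odds ratio 0.0615, both adjusted p below 1e-300). Against CTCF peaks with YY1 and no RAD21, where 62.2% overlapped H3K27ac in untreated cells, the difference was −55.60 points. With all peaks reduced to 200 bp it was −14.85 points (1.19% against 16.0%), and −10.33 points against all CTCF peaks with YY1 (11.5%).

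Most RAD21/YY1-free peaks with H3K27ac had it in both lists. Auxin and untreated lists shared 1554 of them, 90.7% of those in the untreated list and 85.6% of those in the auxin list, while 261 were in the auxin list alone and 160 in the untreated list alone. Over all untreated CTCF peaks the lists shared 94.1% of those in the untreated list and 89.4% of those in the auxin list, and these overlaps were not tested. By gap to RAD21, H3K27ac overlapped 52.5% of the peaks within 100 bp, 8.56% of those between 1 and 5 kb and 0.142% (3 of 2117) of those beyond 100 kb.

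LDB1 was rarer still. In auxin-treated cells 245 RAD21/YY1-free peaks (0.941%) overlapped an LDB1 peak, against 1.63% of CTCF peaks with RAD21 and no YY1 (adjusted exact p = 2.75e-12), 10.6% of those with YY1 (adjusted exact p = 1.39e-268) and 2.23% of all. In untreated cells 248 did (0.953%), against 1.63% (odds ratio 0.581, 0.497 to 0.679, adjusted exact p = 6.77e-12), 10.7% with YY1 (adjusted exact p = 5.47e-274) and 2.25% of all. Both lists shared 206, 84.1% of those in the auxin list, against 87.5% over all untreated CTCF peaks, with 39 in the auxin list alone and 42 in the untreated list alone. Of the 248, 142 (57.3%) also overlapped H3K27ac. Outside H3K27ac the difference in untreated cells from peaks with RAD21 and no YY1 was −0.16 points, and from peaks with YY1 −3.52 points.

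The RAD21/YY1-free peaks were seldom in loop anchors. Anchors are 5 to 10 kb wide in the deposited lists, so a CTCF peak in an anchor can lie several kb from the loop's point of contact. In mid-G1 cells 4056 RAD21/YY1-free peaks (15.6%) lay in an anchor, against 42.4% of CTCF peaks with RAD21 and no YY1 (−26.86 points, −27.60 to −26.13, odds ratio 0.250) and 31.3% of all CTCF peaks. In asynchronous cells 3675 (14.1%) did, against 38.3% (−24.18 points, −24.89 to −23.46, odds ratio 0.265) and 28.4% of all. Both adjusted p were below 1e-300, and the sign held on 20 of 20 chromosomes.

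The shares were also below those of CTCF peaks with YY1, 48.9% in mid-G1 and 45.6% in asynchronous cells (both adjusted p below 1e-300). CTCF peaks with YY1 and no RAD21 stood between, with 32.8% in mid-G1 (adjusted exact p = 1.8e-60 for the RAD21/YY1-free peaks against them) and 30.1% in asynchronous cells (adjusted exact p = 9.3e-56). Outside H3K27ac the difference from that class was −10.56 points in mid-G1 and −9.11 points in asynchronous cells, against −17.23 and −15.95 points over all peaks.

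Anchors with a RAD21/YY1-free peak mostly held cohesin elsewhere in the anchor. In mid-G1 cells 5417 of 28310 anchors, counted as 2 per loop (19.1%), held a RAD21/YY1-free peak. Of these, 4178 (77.1%) also held an untreated RAD21 peak, close to the 76.1% of all mid-G1 anchors. In asynchronous cells 4685 of 25476 anchors (18.4%) held one, of which 3530 (75.3%) also held RAD21, against 74.0% of all anchors. The RAD21/YY1-free peaks in asynchronous anchors had a median gap to RAD21 of 2273 bp, against 12877 bp for the others.

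Anchors with such a peak and no untreated RAD21 numbered 1239 in mid-G1 and 1155 in asynchronous cells. They were 18.3% of the 6756 mid-G1 anchors without untreated RAD21 and 17.5% of the 6616 asynchronous ones. These shares are near the 19.1% and 18.4% over all anchors. Of the 1239 and 1155 anchors, 747 in mid-G1 and 710 in asynchronous cells also held no YY1 peak, and 484 and 433 held an auxin RAD21 peak. The 1239 mid-G1 anchors belonged to 1184 of 14155 loops (8.36%), of which 55 had such an anchor at both ends. The 1155 asynchronous anchors belonged to 1103 of 12738 loops (8.66%), of which 52 had one at both ends. The YY1, auxin RAD21 and loop counts were not made over all anchors without untreated RAD21. Mid-G1 and asynchronous anchors shared 2424 RAD21/YY1-free peaks, 59.8% of those in mid-G1 anchors and 66.0% of those in asynchronous anchors. Over all untreated CTCF peaks the shares were 69.9% and 77.0%, and the difference was not tested.

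Most of the peaks lay in no loop anchor. Over both lists 20729 (79.6%) were in no anchor. Loops were summed over the 2 lists, so a loop found in both counted once in each. By this count 2576 peaks were in the anchor of 1 loop and 2731 in those of several, up to 13. The 2731 include the 2424 in anchors of both lists. The share in no anchor of either list was not counted over all untreated CTCF peaks. In each list alone most of those lay outside anchors too, with 31.3% in mid-G1 and 28.4% in asynchronous anchors. By distance, 29.5% of the RAD21/YY1-free peaks with RAD21 at 1 to 5 kb were in an asynchronous anchor, but 1.37% of those beyond 100 kb, as the plot by gap to RAD21 shows.

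Boundaries, the 10 kb intervals between neighbouring contact domains, held fewer RAD21/YY1-free peaks too. In mid-G1 cells 1130 (4.34%) lay in a boundary, against 6.67% of CTCF peaks with RAD21 and no YY1 (adjusted exact p = 7.71e-32), 7.69% of those with YY1 (adjusted exact p = 4.91e-24) and 5.75% of all. In asynchronous cells 1235 (4.74%) did, against 7.13% (adjusted exact p = 3.04e-31), 7.57% (adjusted exact p = 5.41e-17) and 6.13% of all. The difference from the RAD21 class was −2.33 points in mid-G1 and −2.39 points in asynchronous cells, and −5.53 and −5.84 points with boundaries widened by 10 kb on each side. Against CTCF peaks with YY1 and no RAD21 it was −3.35 points in mid-G1 (adjusted exact p = 1.08e-08) and −2.57 points in asynchronous cells (adjusted exact p = 1.34e-05), but outside H3K27ac it missed the threshold, with −1.28 points (adjusted exact p = 0.140) and −0.85 points (adjusted exact p = 0.340).

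Boundaries with a RAD21/YY1-free peak held cohesin more often than all boundaries did, though most of them, like most boundaries, held none. Of the 952 mid-G1 boundaries with such a peak (17.3% of 5508), 443 (46.5%) held an untreated RAD21 peak, against 34.0% of all mid-G1 boundaries, and 509 (53.5%) held none. Of the 1047 asynchronous ones (17.2% of 6070), 460 (43.9%) held RAD21, against 32.6% of all, and 587 (56.1%) held none. These shares were not tested.

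Single peaks show the range within the class, with coordinates in mm9. By number of loops, the leading peaks were chr2:174123700-174124099 and chr15:61816944-61817343, each in 7 mid-G1 and 6 asynchronous loops, and chr2:172822689-172823088, in 5 mid-G1 and 7 asynchronous loops. All 3 were kept in the auxin CTCF list and gained no RAD21 peak. They had an untreated RAD21 peak close by, at 541, 1713 and 566 bp, and the first and second overlapped H3K27ac in auxin-treated and untreated cells. The first also had a YY1 peak of the other antibody and of the anaphase and telophase list.

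The member closest to RAD21, chr2:84295000-84295399, was 1 bp from a RAD21 peak and lay in the anchor of 1 mid-G1 and 1 asynchronous loop. The one closest to YY1, chr8:125625154-125625553, touched a YY1 peak and was 114 bp from RAD21. It overlapped H3K27ac, both boundary lists and the anchors of 3 asynchronous loops. The most isolated one, chr14:4214350-4214749, was 4367189 bp from the nearest RAD21 peak and 4469813 bp from the nearest YY1 peak, and it appeared in the auxin CTCF list and no other.

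The peak of the prometaphase YY1 list, chr7:16986420-16986819, lay 9 bp from an untreated YY1 peak, and it was also in both lists of the other antibody, both CTCF-AID lists, both H3K27ac lists and the auxin RAD21 list. Of the 2 in the late G1 list, chr7:6335898-6336297 gained RAD21 and lay in the anchor of 1 mid-G1 and 1 asynchronous loop. The other, chr10:17195854-17196253, lay in a mid-G1 boundary and gained no RAD21. All 3 were kept in the auxin CTCF list.

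In 3 long stretches no CTCF peak of another class came between RAD21/YY1-free peaks. The longest run held 43 peaks over 1089 kb at chr5:126975874-128064463, with no RAD21 and no YY1 peak in untreated cells. In auxin-treated cells 39 of the 43 were in the CTCF list and 9 RAD21 peaks lay in the span. The next held 26 peaks over 847.6 kb at chr5:126025451-126873088, again with no untreated RAD21 or YY1 peak, and had 21 kept in the auxin CTCF list and 3 auxin RAD21 peaks. The next after that held 22 peaks over 1511 kb at chr8:127473335-128984558, with no untreated RAD21 peak, 4 untreated YY1 peaks, 20 kept in the auxin CTCF list and 8 auxin RAD21 peaks.

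**Figure D5:**
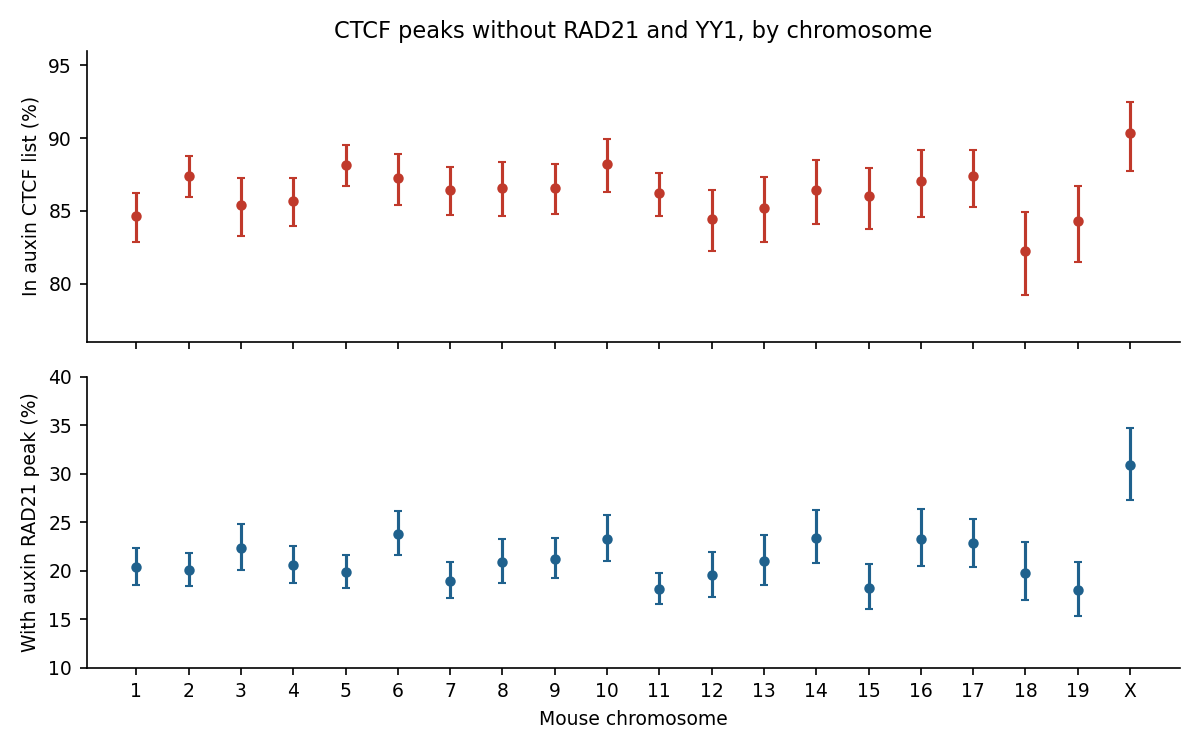
Points give, for each mouse chromosome on the x axis, the percentage of RAD21/YY1-free CTCF peaks in the auxin CTCF list (top, axis from 76%) and with an auxin RAD21 peak (bottom, axis from 10%), with Wilson 95% intervals. Retention stands between 82.3% on chromosome 18 and 90.4% on chromosome X, and the RAD21 share between 18.0% on chromosome 19 and 30.9% on chromosome X.

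Both auxin readouts were highest on chromosome X. The share kept in the auxin CTCF list had a median of 86.4% over the chromosomes and was highest on chromosome X, with 544 of 602 (90.4%), against 86.3% of the RAD21/YY1-free peaks on autosomes (4.08 points, 1.43 to 6.23, adjusted exact p = 0.0109). The share with auxin RAD21 had a median of 20.8% and was 30.9% on chromosome X (186 of 602), against 20.7% on autosomes (10.22 points, 6.63 to 14.06, adjusted exact p = 4.54e-08). The highest autosome was chromosome 6, with 23.8%. Retention was highest on chromosome X for CTCF peaks with RAD21 and no YY1 as well, at 99.3%, against a median of 98.7% over the chromosomes. Of the CTCF peaks with YY1 and no RAD21 on chromosome X, 33.3% had an auxin RAD21 peak, against a median of 28.2%. Chromosome X was singled out after its values had been seen, and whether its values are particular to the RAD21/YY1-free peaks was not tested.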

How the data were processed

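The deposited peak, loop and boundary lists of the authors hold positions and no score, signal or replicate value. The submitters' processing notes name Bowtie2, MACS2 2.2.7, deepTools 3.5.1 and the mouse build mm9. Not given in the sources used here are the peak threshold, the handling of replicates, the loop and boundary callers and the read depth, so depth enters no interval. The identical coordinates of peaks shared between lists mean that small shifts of a peak between conditions cannot be seen.

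Lists were intersected with bedtools 2.31.1, at least 1 bp counting as overlap. Shares have Wilson 95% intervals, differences Newcombe intervals and odds ratios Woolf intervals. Classes were compared by two-sided Fisher's exact tests across peaks (SciPy 1.17.1), with a threshold of 0.05 after Benjamini-Hochberg adjustment over 32 comparisons, and over 15 within the class. The counting and the test were checked on simulated lists. Peaks are not replicates: neighbouring peaks share libraries, so the p-values measure the spread between peaks alone, and replicates, where numbered, are not said to be separate cultures.

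The class, its lists and its tests were chosen with earlier results of these data known. Single peaks were named by a rule: the 3 in most loops, the 3 longest runs, the extremes of the gap to RAD21 and YY1, and each peak of a list that held 5 or fewer. RNA-seq, TT-seq and domain files were not used. Genes, sequences and motifs were not analysed, because the reference given is of another build than mm9.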

Additional observations from a re-analysis of the deposited data

How the results depend on the processing

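The 32 differences between classes were recomputed under 9 alternatives, which gave 287 values, of which 279 kept their direction and their side of the threshold. The alternatives were an overlap of at least 50% of the CTCF peak, peaks reduced to 200 bp, leaving out RAD21/YY1-free peaks with YY1 in another list, keeping those at least 1 kb from RAD21 and YY1, CTCF peaks kept after auxin, CTCF peaks outside H3K27ac, autosomes only, each chromosome left out in turn, and anchors and boundaries widened by 10 kb. Outside H3K27ac, 4 differences no longer passed, those in auxin RAD21 (−2.96 points) and in boundaries of mid-G1 (−1.28) and asynchronous cells (−0.85) from peaks with YY1 and no RAD21, and that in YY1 by the other antibody from peaks with RAD21 (−0.0352). The last also no longer passed with an overlap of at least 50% (−0.0831) or with 200 bp peaks (−0.0760). The difference in CTCF retention from peaks with YY1 and no RAD21, 0.26 points and not past the threshold, turned to −0.64 outside H3K27ac and lay between −0.16 and 0.71 with 1 chromosome left out. Fewer peaks enter outside H3K27ac, and the cause of these changes was not tested. The class itself held 27070 peaks with the overlap of at least 50% and 27085 with 200 bp peaks, with 20.2% gaining RAD21 under both. No paired analysis was possible because each condition has 1 list with no values per replicate. The alternatives planned for nascent RNA were not run, because the genes at these peaks could not be placed in mm9.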

Other observations

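The 2 longest runs of RAD21/YY1-free peaks neighbour each other on chromosome 5 and were looked at together after their positions had been seen. From 126025451 to 128064463 (2.04 Mb, mm9) the untreated CTCF list held 70 peaks, 69 of them RAD21/YY1-free (98.6%), a density of 34.3 CTCF peaks per Mb against 22.4 per Mb over the genome. The same stretch held 1 untreated RAD21 peak and no YY1, H3K27ac or LDB1 peak of untreated cells, where the genome held 15.1 RAD21, 15.6 YY1, 8.32 H3K27ac and 6.79 LDB1 peaks per Mb. Because the stretch was chosen as runs of RAD21/YY1-free peaks, their share in it and their lack of untreated RAD21 and YY1 follow from the choice. The densities were not tested. In auxin-treated cells the stretch held 77 CTCF and 13 RAD21 peaks, or 6.38 RAD21 peaks per Mb against 19.0 over the genome. Of the 69 RAD21/YY1-free peaks, 60 (87.0%) stayed in the auxin CTCF list and 11 (15.9%) had an auxin RAD21 peak. Each loop list had 1 anchor there, and each boundary list 7 boundaries (3.43 per Mb, against 2.09 per Mb in mid-G1 and 2.30 per Mb in asynchronous cells over the genome). Chromosome 5 had the highest share of RAD21/YY1-free peaks (48.1%), and 47.2% without this stretch.

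On chromosome X 31.7% of all auxin RAD21 peaks had no untreated counterpart, against 26.3% on autosomes, while the shares of auxin CTCF peaks with no untreated counterpart were 15.1% on chromosome X and 15.0% on autosomes. The RAD21/YY1-free peaks of chromosome X were also the least often in mid-G1 anchors (7.14%), asynchronous anchors (7.47%), asynchronous boundaries (3.16%) and H3K27ac peaks (4.98%) of all chromosomes.

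The bins of 1 Mb with most RAD21/YY1-free peaks were on chromosomes 11 (61 of 109 CTCF peaks), 15 (60 of 98) and 17 (60 of 120), so the fullest bins also held many CTCF peaks of other classes, unlike the stretch on chromosome 5.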
